A study of Homo sapiens with 40 samples.

Results

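Ikaros, PAX5 and the early B cell factors are a small group of transcription factors that set up and hold the B cell programme. They are described here across 40 gene expression arrays of mantle cell lymphoma lines given OTX015, an inhibitor of BET bromodomains, or the solvent DMSO. The members were taken by name: all probes annotated to IKZF1, IKZF3, PAX5, EBF1, TCF3 and FOXO1, which gave 7 of the 47231 probes on the array. IKZF3 had 2 probes and the other genes 1 each. Probes above background on at least 4 arrays entered the tests, and 6 of the 7 member probes did, standing for 5 of the 6 genes among 13746 genes tested. The probe that represents each of these 5 genes was above background on all 40 arrays. The PAX5 probe was not above background on any array.

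The 4 lines were GRANTA519, JEKO1, MAVER1 and REC1, all established from human mantle cell lymphoma, a cancer of mature B cells in which cyclin D1 is usually overexpressed. Cells received OTX015 (MK-8628), a drug that displaces BET proteins from acetylated chromatin, or the vehicle DMSO, and were collected at 2, 4, 8, 12 and 24 h on a single array per condition. The replicates of a group are therefore the 4 lines, and the 20 OTX015 arrays pair off with the 20 DMSO arrays by line and hour. The sources used here state neither the dose nor whether a line was cultured separately for each hour, so p-values measure the spread between these lines or, within a line, between its times.

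Lymphoid progenitors become B cells through a chain of these factors. E proteins encoded by TCF3 (E2A) and the forkhead factor FOXO1 act early and turn on EBF1, EBF1 and E2A turn on PAX5, and PAX5 holds the B cell identity by activating B cell genes and repressing those of other lineages. Ikaros (IKZF1) and Aiolos (IKZF3) are related zinc finger proteins that bind many of the same genes, recruit corepressor complexes and are the proteins that lenalidomide and related drugs send to the cereblon ubiquitin ligase in B cell cancers. BET proteins bind acetylated chromatin at enhancers and promoters and help RNA polymerase to elongate.

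The promoters of 4 members are shown because these genes were measured on the arrays and differed in their response. The sequences are those of RefSeq on GRCh38.p14, from 250 bases before to 50 bases after the annotated start, 5′ to 3′ on the strand of the gene. Capitals mark the E-box CANNTG, the element E proteins bind, and the Ikaros element TGGGAA, both searched on either strand. For IKZF1, which has 3 promoter entries, the most 5′ one was taken, chr7:50304466-50304765 on the plus strand. The others lie at chr5:159097907-159098206 (EBF1), chr19:1652566-1652865 (TCF3) and chr13:40666592-40666891 (FOXO1), all on the minus strand. The windows of IKZF1 and EBF1 lie inside their genes, whose 5′ ends are at 50303455 and 159099916. Those of TCF3 and FOXO1 span the 5′ end of the gene, at 1652615 and 40666641.
IKZF1: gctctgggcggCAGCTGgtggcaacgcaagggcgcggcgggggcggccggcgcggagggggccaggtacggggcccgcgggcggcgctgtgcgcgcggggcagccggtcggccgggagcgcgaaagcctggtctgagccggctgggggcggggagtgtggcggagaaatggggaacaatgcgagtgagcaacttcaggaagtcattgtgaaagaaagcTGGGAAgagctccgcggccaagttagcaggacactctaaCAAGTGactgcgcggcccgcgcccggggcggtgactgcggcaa
EBF1: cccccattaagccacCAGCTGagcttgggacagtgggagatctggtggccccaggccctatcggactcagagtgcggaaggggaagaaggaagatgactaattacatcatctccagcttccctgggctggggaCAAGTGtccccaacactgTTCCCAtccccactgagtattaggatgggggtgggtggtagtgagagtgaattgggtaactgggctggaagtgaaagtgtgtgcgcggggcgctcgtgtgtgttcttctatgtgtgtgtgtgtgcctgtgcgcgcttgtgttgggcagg
TCF3: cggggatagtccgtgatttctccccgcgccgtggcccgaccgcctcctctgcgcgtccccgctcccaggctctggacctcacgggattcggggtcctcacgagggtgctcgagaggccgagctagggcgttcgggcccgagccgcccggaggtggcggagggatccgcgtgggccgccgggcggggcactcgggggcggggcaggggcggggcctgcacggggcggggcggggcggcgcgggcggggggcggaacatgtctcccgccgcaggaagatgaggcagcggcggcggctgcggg
FOXO1: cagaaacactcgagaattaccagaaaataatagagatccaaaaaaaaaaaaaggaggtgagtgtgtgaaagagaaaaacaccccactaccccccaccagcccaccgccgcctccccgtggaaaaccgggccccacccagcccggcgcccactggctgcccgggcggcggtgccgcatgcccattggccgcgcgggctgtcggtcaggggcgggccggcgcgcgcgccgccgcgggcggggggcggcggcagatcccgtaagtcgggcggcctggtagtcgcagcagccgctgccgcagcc

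The windows of IKZF1 and EBF1 each held 2 matches to CANNTG and 1 to TGGGAA, and those of TCF3 and FOXO1 held neither. These 2 pairs of windows also differ in their place in the gene, whose part was not tested. Of 35116 RefSeq promoters of the same length, 68.7% held CANNTG and 24% held TGGGAA. None of the 4 windows held the forkhead element GTAAACA on either strand, which 3.42% of all promoters held. The windows differed in base composition. TCF3 had 78.3% G and C and 43 CpG, IKZF1 had 71% and 35, FOXO1 had 68% and 33, and EBF1 had 57% and 8, against medians of 58.7% and 14 over all promoters. A match describes letters in the sequence, and no binding was measured.

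Between 35.3% and 46.9% of all probes were above background on an array, the background level lay between 89.17 and 113.2 intensity units, and for each of the 40 arrays the nearest array by correlation was one from the same line. The DMSO arrays of 2 h stood apart in background. On these 4 arrays the background was 103.4 to 110.4 units and 37.9% to 39.9% of probes were above it, against at most 101.7 units and 39.6% to 46.9% on DMSO arrays of other times. On OTX015 arrays these values overlapped, at 101.6 to 108.8 units and 36.3% to 45.6% at 2 h and at 89.72 to 113.2 units and 35.3% to 44.2% at other times. Without the 2 h arrays, IKZF1 (-1.28), IKZF3 (-0.41) and TCF3 (-0.71) still fell over all times (limma, adjusted p of 0.000513, 0.00754 and 0.00573). All 5 B cell marker genes with a probe (MS4A1, CD79A, CD79B, CD22 and CD37) were above background on most arrays. Their signals summed to 3423 to 12590 on OTX015 arrays and 6518 to 15130 on DMSO arrays. Marker sums here and below are of background-corrected signals, not of raw intensities. Of the mantle cell lymphoma markers, SOX11 was above background on all 40 arrays, CCND1 on 10 OTX015 and 15 DMSO arrays, and CD5 on 1 and 5. No marker of T and NK cells was above background on most arrays. CD3D was so on 5 OTX015 and 5 DMSO arrays, CD7 on 3 and 5, and CD2 on 1 and 3. CD3G was so on 1 and 2, GNLY on 0 and 3, and CD3E, NKG7 and KLRD1 on 0. The summed signal of these 8 markers was 165.6 to 1281 on OTX015 arrays against 165.1 to 1405 on DMSO arrays. Of 7 myeloid markers only CD14 passed on most arrays (17 OTX015 and 20 DMSO), with sums over the markers of 162 to 387.8 and 180.5 to 368. LYZ passed on 8 and 7 arrays, ITGAM on 6 and 8, MPO on 3 and 0, CSF1R on 2 and 1, S100A8 on 1 and 0, and S100A9 on 0.

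PAX5 (chr9:36833269-37034268) could not be followed. Its probe ILMN_1687052 read 83.12 to 101.4 intensity units on the 20 OTX015 arrays and 86.36 to 105.7 on the 20 DMSO arrays. These signals were 0.65 to 0.959 times the level that counted as above background, so the probe was not well above background in either arm and no fold is given. A probe reports only the transcripts that carry its sequence, and PAX5 levels in these lines were thus not measured here.

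**Figure D1:**
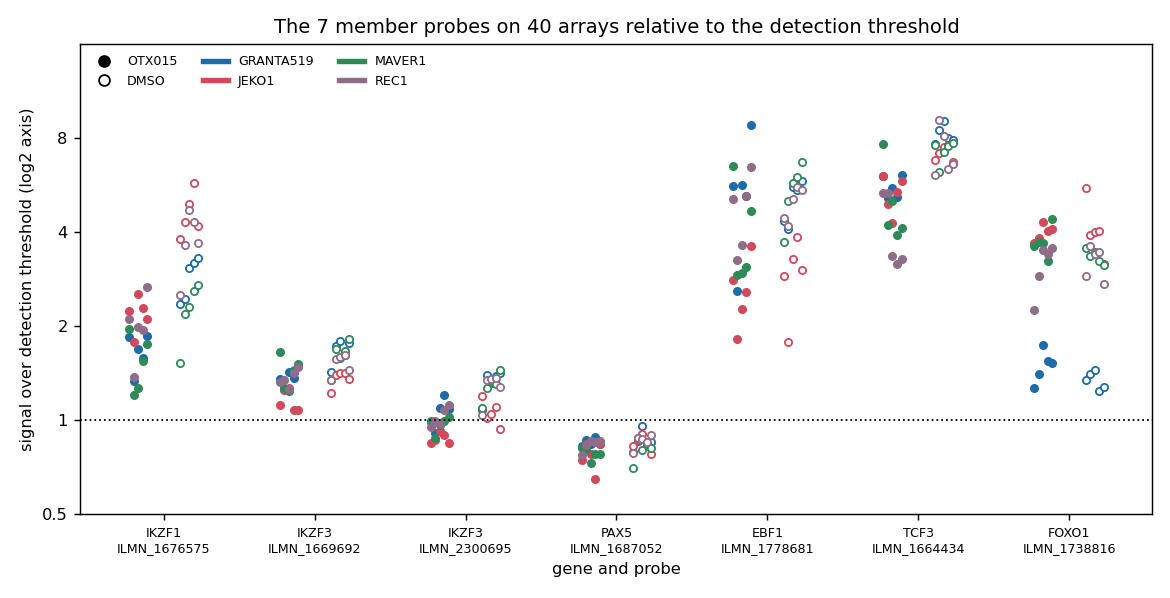
Signal of each of the 7 member probes over the level that counts as above background (vertical axis, log2-spaced), with filled points for the 20 OTX015 arrays and open points for the 20 DMSO arrays and a colour per line. The PAX5 probe lies below 1 on every array, at 0.65 to 0.959, and ILMN_2300695 of IKZF3 lies above 1 on 6 OTX015 and 19 DMSO arrays.

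Over all times, 3 of the 5 measured members fell under OTX015 and none rose, where 28.9% of all genes tested passed the threshold, 14.4% lower and 14.5% higher. IKZF1, TCF3 and IKZF3 fell, and EBF1 and FOXO1 did not pass. The median over the 5 members was -0.35, against 0.0057 over all genes. The members were chosen with earlier results of these data known, so these values test no excess over all genes. All differences are OTX015 minus DMSO in log2 signal, shown with the SD over the 4 lines where no other error is named, and limma p-values are adjusted over the 13746 genes at a threshold of 0.05. The p-values at a time or in a line use a spread shared over all times or all lines, not the SD printed beside them. In bulk samples, fewer cells of a type and less RNA per cell cannot be told apart.

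By time, FOXO1 fell at 2 h and no other member passed, where 9.8% of all genes passed and 4.84% fell. At 4 h and at 8 h 3 of 5 members fell, which were IKZF1, IKZF3 and TCF3. Of all genes 20% passed at 4 h, 10.1% lower, and 21.7% at 8 h, 10.7% lower. At 12 h IKZF1 and TCF3 fell and FOXO1 rose, where 22.5% of genes passed, 11.9% lower and 10.6% higher. At 24 h IKZF1, IKZF3 and TCF3 fell and FOXO1 rose, where 24.6% passed, 11.4% lower and 13.2% higher. By line, 3 members fell in GRANTA519 (IKZF1, IKZF3 and TCF3), 2 in JEKO1 (IKZF1 and IKZF3), 3 in MAVER1 (IKZF1, TCF3 and EBF1) and 2 in REC1 (IKZF1 and TCF3). Of all genes 24.3% passed in GRANTA519 (12.4% lower), 24.3% in JEKO1 (13.5% lower), 22% in MAVER1 (10.7% lower) and 15.4% in REC1 (7.63% lower).

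**Figure D2:**
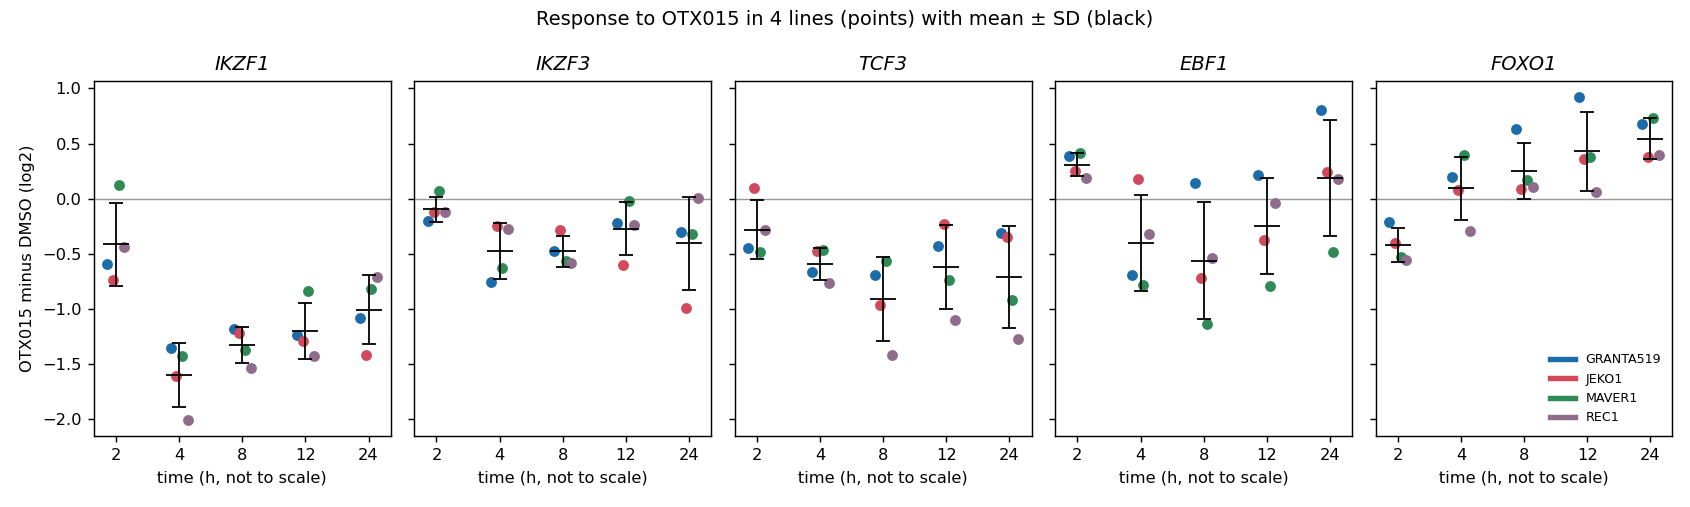
OTX015 minus DMSO (log2 signal, vertical axis) for each measured member at 2, 4, 8, 12 and 24 h (horizontal axis, not to scale), with a coloured point for each line and the mean ± SD of 4 lines in black. IKZF1 lies below 0 in 19 of 20 pairs, while FOXO1 lies below 0 in all 4 lines at 2 h and above 0 in all 4 at 24 h.

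IKZF1 (chr7:50303455-50405101), which encodes Ikaros, fell most among the members. Its probe ILMN_1676575 was above background on all arrays, at 124.4 to 322.8 intensity units with OTX015 and 196.4 to 637.8 with DMSO. The log2 level ran from 5.90 over a median of 6.98 to 7.78 on OTX015 arrays, against 6.74, 8.01 and 8.98 on DMSO arrays. These ranges overlap, but within pairs the OTX015 array was the lower in 19 of 20, a pattern that 6.55% of all genes reached. Over all times IKZF1 differed by -1.11 ± 0.18, a 2.16-fold fall (adjusted p = 0.000677), and 129 of the genes past the threshold fell further. With the authors' series matrix values the fall was -0.71 (adjusted p = 0.00132).

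Mean differences of IKZF1 were smallest at 2 h and largest at 4 h. At 2 h its levels, in the order GRANTA519, JEKO1, MAVER1, REC1, were 7.12, 7.78, 6.86 and 7.44 with OTX015 and 7.71, 8.52, 6.74 and 7.89 with DMSO. MAVER1 was the 1 pair of 20 in which the OTX015 array was higher. Its 2 h arrays had 45.6% of probes above background with OTX015 and 37.9% with DMSO, whose part was not tested. Over the 4 lines the mean difference of -0.41 ± 0.38 did not pass (adjusted p = 0.0748). Without MAVER1 it was -0.59 and passed (adjusted p = 0.0347). At 4 h the same lines stood at 6.17, 6.99, 5.93 and 6.24 with OTX015, against 7.52, 8.60, 7.36 and 8.25 with DMSO. All 4 OTX015 values lay below all 4 DMSO values, and the difference of -1.60 ± 0.29 was a 3.03-fold fall (adjusted p = 6.46e-07). Later falls were -1.33 ± 0.16 at 8 h, -1.20 ± 0.26 at 12 h and -1.01 ± 0.32 at 24 h (adjusted p of 2.39e-06, 6.09e-06 and 3.34e-05).

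At 24 h IKZF1 stood at 6.98, 7.50, 6.88 and 7.65 with OTX015 and at 8.06, 8.91, 7.70 and 8.36 with DMSO, in the same order of lines. Every line was lower with OTX015, and the OTX015 values all lay below the lowest DMSO value. The response of IKZF1 differed between times (F test in a model with line and time, adjusted p = 0.00311, where 11.4% of genes passed), and was lower at 24 h than at 2 h by -0.59 ± 0.18 (24 h minus 2 h, SE; adjusted p = 0.0405, where 11.5% passed). This change lay mainly in the DMSO arm. IKZF1 was higher at 24 h than at 2 h with DMSO in all 4 lines, by 0.54 ± 0.28 (adjusted p = 0.0121). With OTX015 the change was -0.05 ± 0.21, with 2 lines higher and 2 lower. Without MAVER1 the DMSO change was 0.41 and did not pass (adjusted p = 0.136). These changes rest on the 2 h arrays, of which the DMSO ones had the higher background, and its part was not tested. With no background correction the response changed by -0.43 (adjusted p = 0.0101) and the DMSO level by 0.39 (adjusted p = 0.00466). Of all genes, 7.45% passed in the DMSO arm, and among the members IKZF1 and FOXO1 did.

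IKZF1 fell in each line when the 5 times served as replicates. The differences were -1.26 ± 0.32 in JEKO1, -1.22 ± 0.64 in REC1, -1.09 ± 0.30 in GRANTA519 and -0.87 ± 0.62 in MAVER1 (SD over 5 times, adjusted p between 0.000104 and 0.00356). The test of a difference between lines did not pass for IKZF1 (adjusted p = 0.299), while with no background correction and with the series matrix it did (0.00879 and 0.0132). No member passed that test here, where 9.7% of all genes did. At an unadjusted p under 0.05, EBF1, TCF3 and FOXO1 passed (0.019, 0.0147 and 0.00627).

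**Figure D3:**
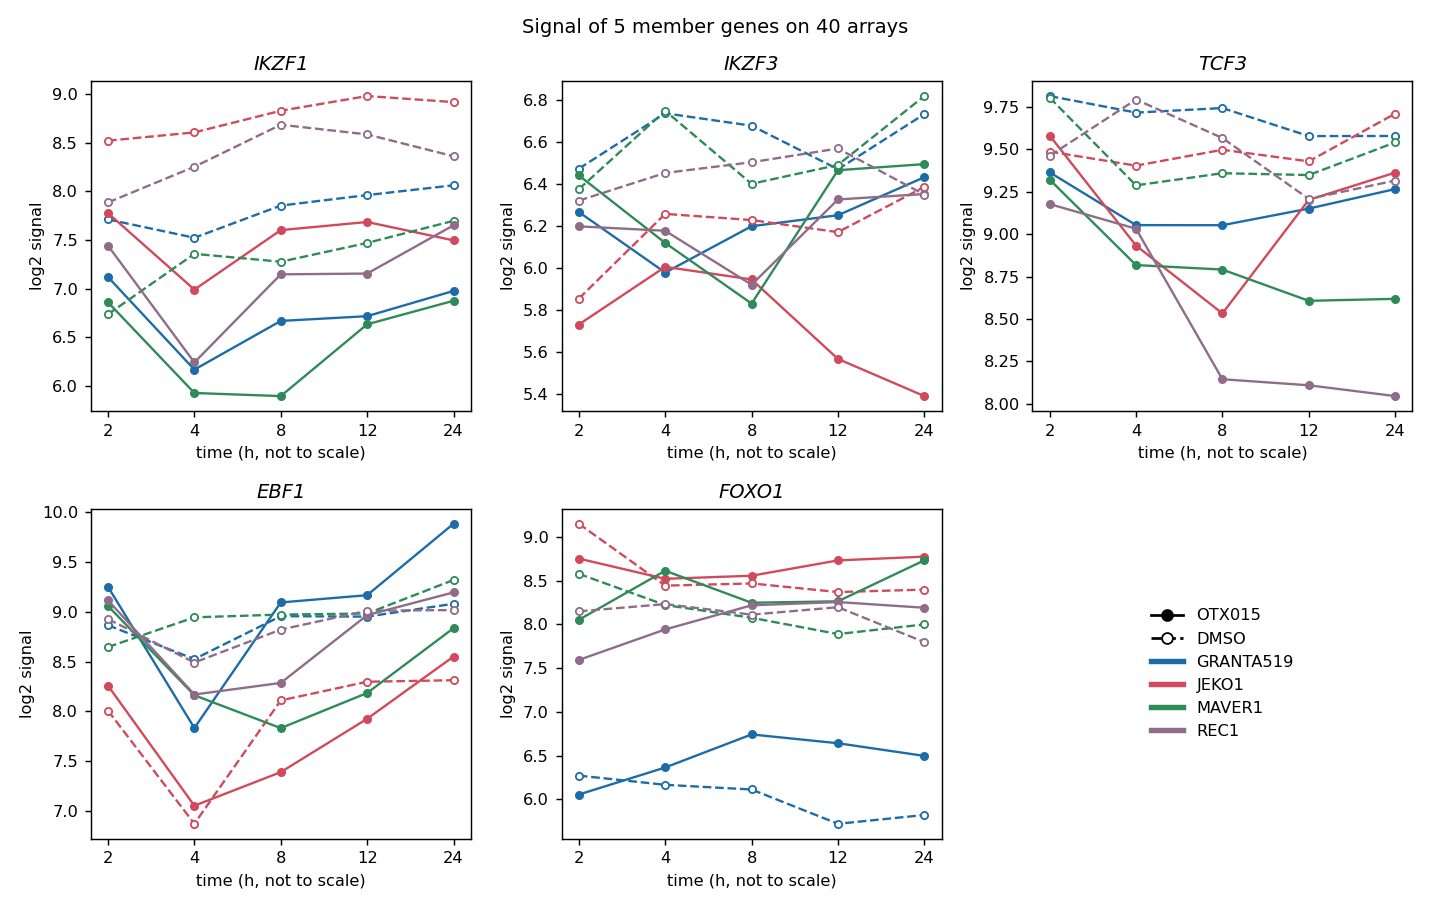
Log2 signal (vertical axis, a scale of its own in each panel) against hours of exposure (horizontal axis, not to scale) for the 5 measured members, with filled points and solid lines for OTX015, open points and dashed lines for DMSO and a colour per line. The IKZF1 curves of OTX015 run below the DMSO curves of the same line from 4 h on, and FOXO1 in GRANTA519 lies apart from the other lines in both arms.

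IKZF3 (chr17:39757715-39864312), which encodes Aiolos, also fell over all times. The brighter probe, ILMN_1669692, which represents the gene, was above background on all arrays. Its log2 level had a lowest, median and highest value of 5.39, 6.19 and 6.50 on OTX015 arrays and 5.86, 6.46 and 6.82 on DMSO arrays, so the arms overlap widely. The OTX015 array was lower in 18 of 20 pairs. Over all times the difference was -0.35 ± 0.09, a 1.27-fold fall (adjusted p = 0.00911), and with the series matrix it was -0.16 (adjusted p = 0.0108).

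At 4 h the 4 lines, in the order GRANTA519, JEKO1, MAVER1 and REC1, had IKZF3 levels of 5.98, 6.01, 6.12 and 6.18 with OTX015 and 6.74, 6.26, 6.75 and 6.45 with DMSO. The 2 sets did not overlap, and the difference was -0.48 ± 0.25 (adjusted p = 0.0125). The gene fell likewise at 8 h (-0.48 ± 0.14, adjusted p = 0.0119) and at 24 h (-0.40 ± 0.42, adjusted p = 0.0283), but did not pass at 2 h (-0.10 ± 0.12) or 12 h (-0.27 ± 0.24). With 3 lines most of these calls were lost while the differences mostly stayed near their size. Without GRANTA519 they were -0.39 at 4 h, -0.48 at 8 h and -0.44 at 24 h (adjusted p of 0.15, 0.0725 and 0.0893), and without MAVER1 -0.43, -0.45 and -0.43 (0.107, 0.0852 and 0.0863). The 8 h call was lost also without REC1 (-0.44, adjusted p = 0.0701). Leaving out JEKO1 ended the 24 h call and shrank the difference to -0.21 (adjusted p = 0.219). JEKO1 had the largest difference at 24 h, with 5.39 on the OTX015 array and 6.39 on the DMSO array, and REC1 had 6.35 on both.

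Within lines, IKZF3 passed in JEKO1 (-0.45 ± 0.35, adjusted p = 0.0121) and in GRANTA519 (-0.39 ± 0.23, adjusted p = 0.0273), and not in MAVER1 (-0.30 ± 0.31) or REC1 (-0.24 ± 0.22). With the mean of both IKZF3 probes it passed also in MAVER1 (-0.69, adjusted p = 0.000447) and REC1 (-0.53, adjusted p = 0.00619), and MAVER1 passed without its 2 h arrays (-0.39, adjusted p = 0.0472). The call in JEKO1 was lost without its 12 h or 24 h arrays (adjusted p of 0.077 and 0.114) and the call in GRANTA519 without its 4, 8 or 12 h arrays (0.147, 0.1 and 0.0614). The response of IKZF3 did not pass the test between lines (adjusted p = 0.765) or between times (0.426).

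The dimmer IKZF3 probe, ILMN_2300695, was lower with OTX015 in 20 of 20 pairs, as were 3.37% of genes. It was above background on 6 of 20 OTX015 arrays and 19 of 20 DMSO arrays, with a lowest, median and highest log2 level of 4.30, 4.82 and 5.82 against 4.72, 5.87 and 6.23. Most OTX015 values thus lay at or below the level of detection, and the size of the fall depends on the background correction. The fit over all 27197 probes, of which 21.7% passed, gave -0.82 ± 0.18 over all times (adjusted p = 0.001), against -0.30 with no background correction and -0.30 with the series matrix (adjusted p = 0.00209 in both). At 4 h it was above background on 0 of 4 OTX015 arrays and on all 4 DMSO arrays, and was at least 1.73-fold lower with OTX015. The same counts held at 2 h, where it was at least 1.37-fold lower. In JEKO1 it was above background on 0 of 5 OTX015 arrays and 4 of 5 DMSO arrays, at least 1.12-fold lower. In the other lines it was above background on 3 of 5 OTX015 arrays in GRANTA519, 1 of 5 in MAVER1 and 2 of 5 in REC1, and on all 5 DMSO arrays of each. With the mean of both probes, IKZF3 differed by -0.59 (adjusted p = 0.00131) and passed also at 2 h (-0.40, adjusted p = 0.0424) and 12 h (-0.44, adjusted p = 0.0128). These means carry the same limit, since the dimmer probe enters each.

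TCF3 (chr19:1609292-1652615) encodes the E proteins E12 and E47, which bind E-boxes as dimers. Its probe ILMN_1664434 was above background on all arrays, and its log2 level had a lowest, median and highest value of 8.04, 9.04 and 9.58 with OTX015 and 9.21, 9.52 and 9.82 with DMSO. The OTX015 array was lower in 19 of 20 pairs, and over all times TCF3 fell by 0.62 on the log2 scale (-0.62 ± 0.25, a 1.54-fold fall, adjusted p = 0.00546). The one pair that ran the other way was JEKO1 at 2 h, with 9.58 on the OTX015 array and 9.49 on the DMSO array.

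The difference of TCF3 was widest at 8 h. There GRANTA519, JEKO1, MAVER1 and REC1 had 9.05, 8.53, 8.79 and 8.14 with OTX015, against 9.74, 9.50, 9.36 and 9.57 with DMSO. No OTX015 value reached the lowest DMSO value, and the fall was -0.91 ± 0.38 (1.88-fold, adjusted p = 0.000473). At 2 h the difference of -0.28 ± 0.27 did not pass (adjusted p = 0.333). TCF3 fell at 4 h (-0.59 ± 0.15, adjusted p = 0.0141), 12 h (-0.62 ± 0.38, adjusted p = 0.00934) and 24 h (-0.71 ± 0.47, adjusted p = 0.00316). The 4 h call was lost without GRANTA519 (adjusted p = 0.0785) or MAVER1 (0.0573), and the 12 h call without MAVER1 (0.0685) or REC1 (0.0527).

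REC1 stood lowest with OTX015 late in the course. Its TCF3 levels at 2, 4, 8, 12 and 24 h were 9.18, 9.03, 8.14, 8.11 and 8.04 with OTX015 and 9.46, 9.79, 9.57, 9.21 and 9.32 with DMSO. Over its times REC1 differed by -0.97 ± 0.45 (adjusted p = 6.91e-05), MAVER1 by -0.64 ± 0.19 (0.0023) and GRANTA519 by -0.51 ± 0.16 (0.0103, or 0.0589 without its 4 h array). JEKO1 lay at the threshold without passing, at -0.38 ± 0.39 (adjusted p = 0.0514). In 7 of 12 alternatives it passed, among them no background correction (-0.33, adjusted p = 0.0296), the series matrix (-0.32, 0.0255), an offset of 50 (-0.36, 0.0344), 75th percentile scaling (-0.40, 0.0471) and its arrays without 2 h (-0.50, 0.007). Leaving out its 8 h arrays gave -0.24 (adjusted p = 0.287). The spread of TCF3 responses over lines did not pass its own test (adjusted p = 0.0997), nor did that over times (0.164), while the test between lines passed with no background correction and with the series matrix (0.0415 and 0.0474).

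EBF1 (chr5:158695920-159099916) encodes early B cell factor 1, which opens B cell enhancers. Its probe ILMN_1778681 was above background on all arrays. The log2 level had a lowest, median and highest value of 7.05, 8.42 and 9.88 with OTX015 and 6.87, 8.90 and 9.32 with DMSO, and the OTX015 array was lower in 10 of 20 pairs. Over all times EBF1 differed by -0.15 ± 0.30 and did not pass (adjusted p = 0.398).

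Its mean difference was above 0 at 2 h and 24 h and below 0 at the times between. At 2 h the 4 lines, in the order GRANTA519, JEKO1, MAVER1 and REC1, read 9.25, 8.26, 9.06 and 9.11 with OTX015 and 8.87, 8.01, 8.65 and 8.93 with DMSO, so EBF1 was higher with OTX015 in 4 of 4 lines, by 0.31 ± 0.11, without passing (adjusted p = 0.398). At 8 h they read 9.09, 7.39, 7.83 and 8.29 with OTX015 and 8.96, 8.11, 8.97 and 8.82 with DMSO. Lower values in JEKO1, MAVER1 and REC1 and a higher one in GRANTA519 gave -0.56 ± 0.53 (adjusted p = 0.0522). Without GRANTA519 the 8 h difference was -0.80 and passed (adjusted p = 0.0135), and with all lines it passed with 75th percentile scaling (-0.59, adjusted p = 0.0408) and an offset of 50 (-0.50, adjusted p = 0.0438). The differences at 4 h (-0.40 ± 0.44), 12 h (-0.25 ± 0.44) and 24 h (0.18 ± 0.53) did not pass. The test of a difference between times did (adjusted p = 0.0489), and 24 h against 2 h did not (-0.13 ± 0.23, SE, adjusted p = 0.788).

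At 24 h EBF1 stood at 9.88 with OTX015 and 9.08 with DMSO in GRANTA519, and at 8.84 with OTX015 and 9.32 with DMSO in MAVER1, so it was higher with OTX015 in the first line and lower in the other. MAVER1 was the single line in which EBF1 passed over its 5 times (-0.56 ± 0.59, adjusted p = 0.0468). That call was lost without its 4, 8, 12 or 24 h arrays (adjusted p of 0.117, 0.215, 0.186 and 0.0884). With all arrays kept it was lost with no detection filter (adjusted p = 0.0738) and in the fit over all probes (0.0585). The test between lines did not pass for EBF1 (adjusted p = 0.116), and passed with no background correction and with the series matrix (0.0371 and 0.0389).

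FOXO1 (chr13:40555667-40666641) encodes a forkhead factor that PI3K and AKT signalling keeps out of the nucleus and that drives RAG and IL7R expression in early B cells. Its probe ILMN_1738816 was above background on all arrays, with a lowest, median and highest log2 level of 6.05, 8.23 and 8.78 with OTX015 and 5.72, 8.13 and 9.15 with DMSO. The OTX015 array was higher in 15 of 20 pairs, yet over all times the difference of 0.18 ± 0.21 did not pass (adjusted p = 0.19). Without the 2 h arrays it was 0.33 and passed (adjusted p = 0.0491).

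FOXO1 fell at 2 h and rose late. At 2 h GRANTA519, JEKO1, MAVER1 and REC1 had 6.05, 8.75, 8.05 and 7.59 with OTX015 and 6.27, 9.15, 8.58 and 8.15 with DMSO. Each line was lower with OTX015 than its own DMSO array, while the arms overlap across lines, and the fall of -0.42 ± 0.15 passed (adjusted p = 0.0455). The call was lost without JEKO1 (adjusted p = 0.131), MAVER1 (0.215) or REC1 (0.151). At 24 h the same lines had 6.50, 8.78, 8.73 and 8.19 with OTX015 and 5.82, 8.40, 8.00 and 7.80 with DMSO. Now each line was higher with OTX015, and the rise was 0.54 ± 0.19 (1.46-fold, adjusted p = 0.00432). Without MAVER1 it was 0.48 (adjusted p = 0.0553).

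Between these times FOXO1 differed by 0.09 ± 0.29 at 4 h, 0.25 ± 0.26 at 8 h and 0.43 ± 0.36 at 12 h, of which the last passed (adjusted p = 0.0224). The 12 h call was lost without GRANTA519 (0.27, adjusted p = 0.199), JEKO1 (0.0767) or MAVER1 (0.0786). The change of the response with time passed its test (adjusted p = 0.00135), and the response at 24 h exceeded that at 2 h by 0.97 ± 0.14 (SE; adjusted p = 0.000247). Both arms took part. With OTX015 the level was higher at 24 h than at 2 h in 4 of 4 lines, by 0.44 ± 0.29, and with DMSO it was lower in 4 of 4, by -0.53 ± 0.17 (adjusted p = 0.0127). The DMSO change did not pass without GRANTA519 (adjusted p = 0.0582), JEKO1 (0.0537) or MAVER1 (0.107). These changes, too, rest on the 2 h arrays, and the part of the higher DMSO background there was not tested. With no background correction the response changed by 0.70 (adjusted p = 3.31e-05) and the DMSO level by -0.39 (adjusted p = 0.00884).

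In no single line did FOXO1 pass over its 5 times, GRANTA519 coming nearest (0.44 ± 0.45, adjusted p = 0.0621). GRANTA519 passed with probes above background on all 40 arrays (0.44, adjusted p = 0.0427) and without its 2 h arrays (0.61, adjusted p = 0.00144), and MAVER1 without its 2 h arrays (0.42, adjusted p = 0.0219).

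With DMSO the lines differed in 4 of the 5 measured members, a share near the 73.4% of all genes that passed the same F test. The times of a line stood in for replicates in these tests. Between single pairs of lines, the share of all genes that passed was 53.8% for GRANTA519 against JEKO1, 46.4% against MAVER1 and 53.8% against REC1, 46.7% for JEKO1 against MAVER1, 52.3% for JEKO1 against REC1 and 50.4% for MAVER1 against REC1. FOXO1 was set lowest in GRANTA519, at 6.02 ± 0.24 on the log2 scale, against 8.57 ± 0.33 in JEKO1, 8.15 ± 0.27 in MAVER1 and 8.10 ± 0.17 in REC1 (SD, n = 5 times). GRANTA519 was 5.85-fold below JEKO1, 4.40-fold below MAVER1 and 4.23-fold below REC1 (limma, largest adjusted p = 1.27e-11), JEKO1 was above the other two (0.00391 and 0.00126), and MAVER1 and REC1 did not differ beyond their spread (0.718). With OTX015 GRANTA519 was again the lowest line at every time.

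IKZF1 was ordered JEKO1, REC1, GRANTA519 and MAVER1, at 8.77 ± 0.20, 8.35 ± 0.31, 7.82 ± 0.21 and 7.31 ± 0.36 with DMSO, and every pair of neighbours differed (limma adjusted p of 0.00366, 0.000418 and 0.00072). The means with OTX015 kept this order, at 7.51, 7.13, 6.73 and 6.44. EBF1 was lowest in JEKO1 at 7.92 ± 0.60, and the other 3 lines, between 8.85 and 8.97, did not differ from each other beyond their spread (largest adjusted p of JEKO1 against another line 3.25e-05). IKZF3 was lower in JEKO1 than in the other 3 lines (limma adjusted p of 0.00047, 0.00171 and 0.0238), which did not differ beyond their spread. For TCF3 the lines did not pass (F test, adjusted p = 0.229).

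**Figure D4:**
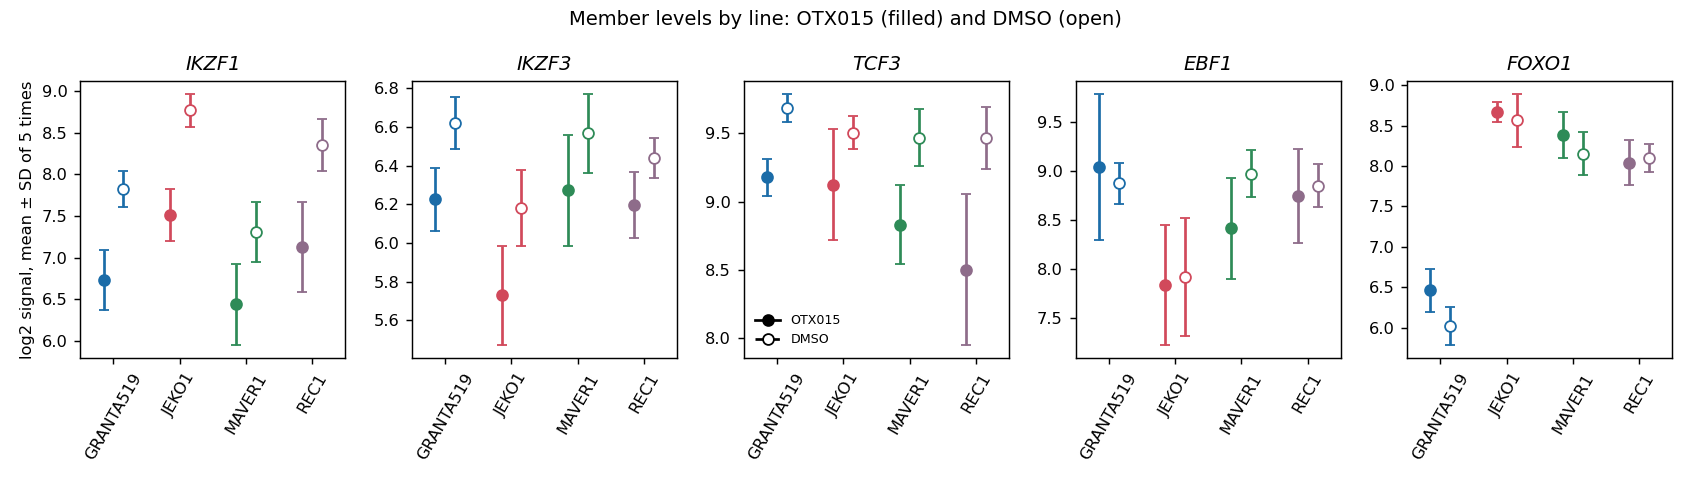
Log2 signal of each measured member by line, as mean ± SD of 5 times, with OTX015 filled and DMSO open and a vertical scale of its own in each panel. FOXO1 in GRANTA519 stands at 6.02 with DMSO, below the other lines, and IKZF1 is lower with OTX015 than with DMSO in each line.

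Of 16 measured relatives of the members, 5 passed over all times (31.2%, against 28.9% of all genes), 3 higher and 2 lower. Of the other Ikaros family genes IKZF2, IKZF4 and IKZF5, only IKZF4 fell (-0.31 ± 0.17, adjusted p = 0.0283), and it was above background on 1 OTX015 and 8 DMSO arrays. It thus entered the tests through its DMSO arrays, and neither the size of its fall nor its place among the 2 lower relatives is firm. None of the 5 EBF and PAX relatives measured passed, with a median of 0.05. Of 3 FOXO relatives FOXO3, a second forkhead factor under AKT control, rose (0.57 ± 0.22, adjusted p = 0.0056). Among 5 measured E proteins and ID proteins, 2 rose and 1 fell. The risers were ID1 (0.87 ± 0.26, adjusted p = 0.00199) and ID2 (0.56 ± 0.13, adjusted p = 0.0025), which bind E proteins and keep them off DNA, and the E protein gene TCF4 fell (-0.31 ± 0.13, adjusted p = 0.0174). ID1 was above background on 16 OTX015 and 13 DMSO arrays.

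The lists of other genes were chosen with earlier results of these data known, so their counts test no excess over all genes. Of the genes PAX5 is known to activate, 8 of 15 measured fell and none rose over all times, where 14.4% of all genes fell and 14.5% rose. The list median was -0.52, against 0.0057 over all genes. CD72, an inhibitory coreceptor on B cells, fell most (-1.97 ± 0.68, adjusted p = 0.00204), above background on 16 OTX015 and 20 DMSO arrays, followed by the kinase gene BLK (-1.19 ± 0.35, adjusted p = 0.00158). Of the genes PAX5 is known to repress, 5 of 9 fell and 1 rose, with a median of -0.43. JCHAIN, the joining chain of secreted antibodies, fell (-1.21 ± 0.79, adjusted p = 0.0166), as did the chemokine gene CCL3 (-1.15 ± 0.46, adjusted p = 0.00344), and NOTCH1, a receptor of T cell commitment, rose (0.72 ± 0.22, adjusted p = 0.00248). JCHAIN was above background on 13 OTX015 and 15 DMSO arrays and CCL3 on 15 and 20. PRDM1, among the 5 that fell, was so on 3 and 13. The lists of activated and repressed genes thus both held more falls than rises. CD79A, CD79B, JCHAIN, XBP1, SDC1 and PRDM1 of these lists are also B cell or plasma cell markers. All 5 B cell markers and 5 of 6 plasma cell markers fell, and their part in these counts was not tested. The background-corrected signals of the plasma cell markers summed to 874.1 to 4937 on OTX015 arrays and 2226 to 6504 on DMSO arrays.

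Of the genes EBF1 and E2A activate, 6 of 9 fell and none rose (14.4% and 14.5% of all genes), with a median of -0.64. VPREB3 fell by 1.69 on the log2 scale (-1.69 ± 0.49, adjusted p = 0.0013). BLK, CD79A and CD79B stand in this list and in that of PAX5. FOXO targets split, with 6 of 15 higher and 2 lower (14.5% and 14.4% of all genes) and a median of 0.15. TXNIP, which restrains glucose uptake, rose (0.97 ± 0.011, adjusted p = 0.000497), as did CITED2, a transcriptional coregulator (0.79 ± 0.46, adjusted p = 0.0126). CITED2 was above background on 20 OTX015 and 16 DMSO arrays. The receptor genes IL7R (-0.79 ± 0.54, adjusted p = 0.0218), above background on 3 OTX015 and 14 DMSO arrays, and S1PR1 (-0.62 ± 0.41, adjusted p = 0.0219) fell. IL7R, too, entered the tests through its DMSO arrays, so the size of its fall is not firm. At 24 h 7 of the 15 rose and 2 fell, with a median of 0.45, where 13.2% of all genes rose and 11.4% fell.

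Genes that Ikaros or Aiolos are known to regulate showed 2 rises and 1 fall among 9 measured, with a median of -0.13, a count near the 28.9% of all genes that passed. CCND3, which encodes cyclin D3, rose (0.57 ± 0.27, adjusted p = 0.00911), as did the CDK inhibitor gene CDKN1A (0.43 ± 0.28, adjusted p = 0.0288), and the surrogate light chain gene IGLL1 fell (-1.002 ± 0.79, adjusted p = 0.032). Among 15 subunits of the NuRD and SIN3 corepressors that Ikaros recruits, MTA3 (-0.69 ± 0.22, adjusted p = 0.00286) and MTA1 (-0.29 ± 0.20, adjusted p = 0.0466) fell, near the share of all genes that fell (14.4%), and the median was 0.02. Of 5 genes of the cereblon ligase, CRBN, its substrate receptor, rose (0.28 ± 0.11, adjusted p = 0.0232) and the scaffold gene CUL4A fell (-0.36 ± 0.18, adjusted p = 0.0181). Of 23 further transcription factors of B cells, 12 were lower past the threshold and 1 was higher (14.4% and 14.5% of all genes), the median being -0.35. SPI1, which encodes PU.1, fell (-1.51 ± 0.26, adjusted p = 0.000677), as did the octamer coactivator gene POU2AF1 (-0.88 ± 0.33, adjusted p = 0.00328), and SOX11 rose (0.44 ± 0.18, adjusted p = 0.00901). SPI1 was above background on 16 OTX015 and 20 DMSO arrays.

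**Figure D5:**
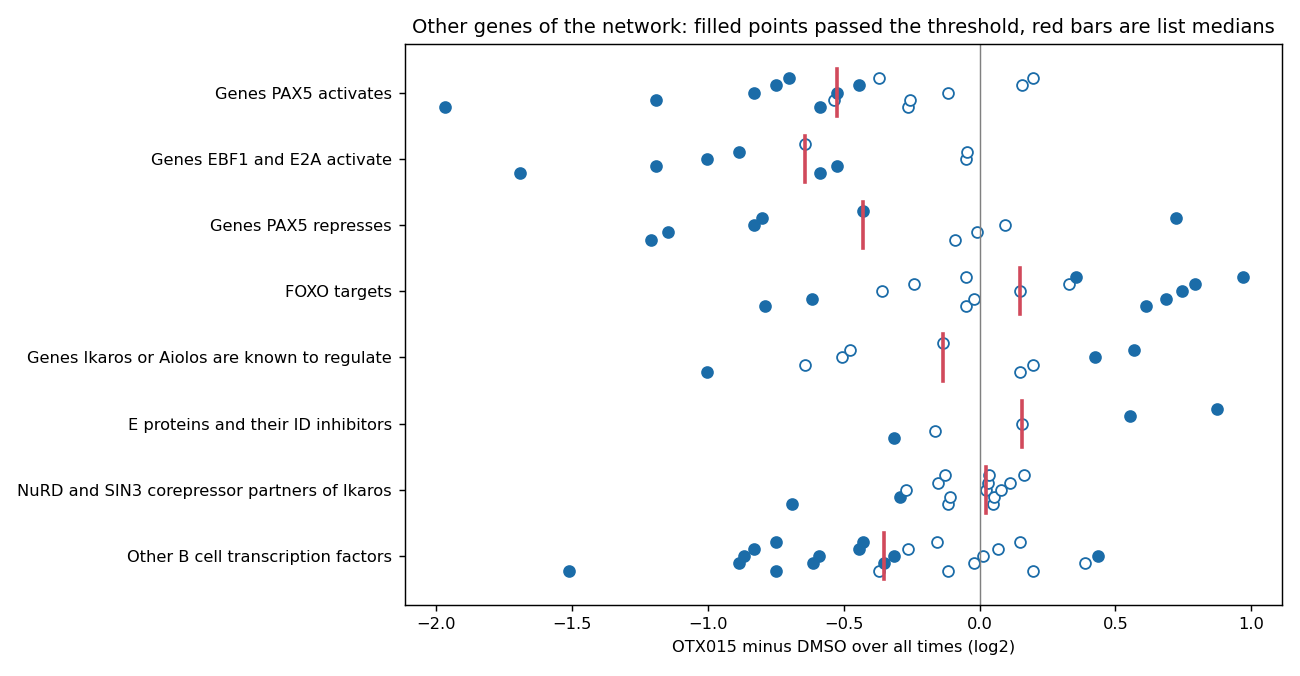
OTX015 minus DMSO over all times (log2 signal, horizontal axis) for the measured genes of 8 lists, with filled points past the threshold and a red bar at each list's median. The medians of the genes PAX5 activates (-0.52), of those it represses (-0.43) and of those EBF1 and E2A activate (-0.64) lie left of 0, and that of FOXO targets lies at 0.15.

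Likeness of response was measured as the mean absolute gap to a member's log2 difference over the 20 pairs, among 10665 genes above background on at least 20 arrays. Closest to IKZF1 were RBM47 (mean gap 0.247), CFLAR (0.283) and IPO8 (0.297), against a median gap of 1.15 over all these genes. Because they were chosen for a small gap, their differences over all times had to lie near that of IKZF1. These were -1.03 ± 0.16, -1.17 ± 0.21 and -0.89 ± 0.16. Closest to IKZF3 were HMBOX1 (0.153), GTF2F1 (0.156) and NBN (0.163), with a median gap of 0.469, and closest to TCF3 were MCM2 (0.258), RGL2 (0.26) and COMMD9 (0.267), with a median gap of 0.694. The gap is measured on these 20 pairs alone and says nothing of shared control.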

How the data were processed

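RNA of 4 lines was hybridised to Illumina bead arrays with 1 colour. The authors deposited a table of raw intensity per probe and array, and GenomeStudio is named per the submitters' processing notes, without a version. The authors' deposited series matrix gave log2 values of the same arrays with column medians of 6.706 to 6.707, scale log2, uncentred and of unstated normalization, and served as an alternative. Neither detection p-values nor control probes were used here, so neqc, the first choice, was replaced. The background of an array was the mode of its log2 signal density, its spread came from signals below the mode, and normal-exponential correction, an offset of 16 and quantile normalization followed in limma 3.58.1 (R 4.3.3). Quantile normalization hides a change shared by all transcripts. A probe was above background beyond 2.33 SD (one-sided p of 0.01), and 27197 of 47231 probes passed on at least 4 arrays. The number of arrays limits the precision.

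Probes with 1 symbol numbered 30113, with several 8, and 17110 were unnamed here. Symbols were updated by Entrez id to a RefSeq table of GRCh38.p14, in which 30074 probes matched and 39 did not, and the brightest probe stood for a gene. Gene coordinates and promoters are those of RefSeq, with promoter entries matched for 5 of 6 members.

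Tests used the 20 OTX015 minus DMSO differences of the same line and time, which pairs arrays that share a cell line (correlation across genes of their deviations from group means 0.756 to 0.886). The overall effect was tested on 4 line means, while levels with DMSO were modelled on line plus time. The effect at a time was a coefficient per time on all 20 differences, with a spread shared over the 5 times. The effect in a line was a coefficient per line on the same differences, with a spread shared over the 4 lines. Both fits treat the 20 differences as independent, although the times of a line may not be. All used limma's lmFit and eBayes, two-sided, with Benjamini-Hochberg adjustment at 0.05. A bound "at least N-fold" sets the mean of the arm above background against a floor in the other, which is, on each array, the lowest signal above background or the probe's own signal if that is higher. Other genes were named as the 2 largest rises and 2 largest falls past the threshold in each of 12 lists, and as the 3 closest responses to each member that passed. The members and lists were chosen with earlier results of these data known. The alternatives were no background correction, the series matrix, an offset of 50, 75th percentile scaling, other detection filters, the mean of all probes, leaving out a line or a time, fits without the pairing and line as a random block. No slide or scan information was used here, and no array was left out.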

Additional observations from a re-analysis of the deposited data

Results flagged for a closer look

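Among 90 groups of 4 or 5 values of the members, 4 held a value far from the others, and chance alone sets apart about 1 in 20 groups. The EBF1 level of JEKO1 with DMSO was 6.87 at 4 h, below its other times. The FOXO1 level of JEKO1 with DMSO was 9.15 at 2 h, above its other times, and that of REC1 with DMSO was 7.80 at 24 h, below its other times. The FOXO1 response at 8 h was 0.63 in GRANTA519, above the other lines.

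The response to OTX015 differed between times, by tests of the difference itself, for 3 members. These were IKZF1 (adjusted p = 0.00311 of the F test, and -0.59 for 24 h minus 2 h), FOXO1 (adjusted p = 0.00135, and 0.97 for 24 h minus 2 h) and EBF1 (adjusted p = 0.0489). Of all genes, 11.4% passed the F test and 11.5% passed for 24 h minus 2 h. The DMSO arrays of 2 h had a higher background, whose part was not tested.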

How the results depend on the processing

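Over all times, IKZF1 fell past the threshold in 18 of 18 alternatives (-1.28 to -0.71), TCF3 in 18 of 18 (-0.71 to -0.51) and IKZF3 in 18 of 18 (-0.59 to -0.16). The smallest value came from the series matrix for IKZF1 and IKZF3 and from leaving out REC1 for TCF3. EBF1 passed in 0 of 18 and FOXO1 in 1 of 18, which was without the 2 h arrays (0.33). No result past the threshold changed its sign in any alternative that was run. The number of members past the threshold at 2 h was 1, against 0 with no detection filter, 2 with probes above background on all 40 arrays and 2 with the mean of all probes. Leaving out 1 line gave 0 to 1 members at 2 h, 1 to 3 at 4 h, 1 to 2 at 12 h, 2 to 4 at 24 h, and 0 to 2 in the DMSO change from 2 h to 24 h. Without the replicate block, which ignores the pairing by line, the counts were 0 at 2 h, 1 at 4 h, 1 at 8 h, 0 at 12 h and 0 at 24 h. Over all times IKZF1 (adjusted p = 2.38e-05), IKZF3 (0.00687) and TCF3 (2.38e-05) still passed in this fit. There it counts the 5 times of a line as independent replicates, so these p-values are no stricter check than the fit on 4 line means. The counts over all genes dropped as well, from 1347 to 57 at 2 h, 2749 to 213 at 4 h and 2981 to 234 at 8 h. At 12 h they went from 3091 to 241 and at 24 h from 3382 to 332. Genes past the threshold over all times numbered 3969, against 2283 without the replicate block, 2454 without GRANTA519 and 2419 without MAVER1. The test between lines gave 0 members, against 3 with no background correction and 3 with the series matrix. Over all genes it gave 1334, against 1772 to 1781 in these alternatives. Within lines, MAVER1 had 5 members without its 2 h arrays, GRANTA519 1 without its 4 h arrays, and JEKO1 1 without its 12 h arrays and 1 without its 24 h arrays. The causes were not tested. Signals near background limit the dimmer IKZF3 probe and the PAX5 probe most.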
